A study of Mus musculus with 5 samples.

Results

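The lysosomal degradation set described here consists of 39 genes: 14 subunits of the vacuolar proton pump, 2 pump accessory proteins, 17 acid hydrolases and activators, 5 lysosomal membrane proteins and the transcription factor gene Tfeb. They were found by symbol in a table of 24982 gene rows, each member in 1 row, and the authors' test was run on all 39 of these rows and on 12311 rows in all. Glb1 shares its row with Tmppe. The RNA came from macrophages of mouse tumors grown from the 9609 line, a fibrosarcoma whose label MCA is the usual short form of methylcholanthrene. The MEK1-hi group (3 libraries) has the genotype MEK1-hi and a treatment with MEK1-hi exosomes, the small vesicles that cells shed, and the MEK1-low group (2 libraries) has the genotype MEK1-low and a treatment with exosomes labelled MEK1-low and GFP. MEK1 is the kinase that phosphorylates ERK. Both groups rest on derivatives of a single tumor line. Genotype and exosome treatment change together between the groups, so their parts in any difference cannot be told apart. The labels give neither the mouse strain and age nor a sorting gate, and do not say whether each library is a separate animal.

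The vacuolar proton pump moves protons into lysosomes, where the hydrolases need acid to work. Its V1 sector sits in the cytosol and splits ATP, and its V0 sector lies in the membrane and carries the protons. In macrophages the same compartment digests engulfed cells, microbes and lipoproteins. Tfeb, known as a switch for lysosome genes, binds a DNA element with the core CACGTG.

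That core was looked for in RefSeq promoters (build GRCm38.p6, 250 bases before to 50 bases after a start site), in which 33 of the 39 members have an entry. The 6 without an entry, Atp6v0d2, Atp6v1b2, Atp6v1c1, Atp6v1g1, Atp6v1h and Asah1, could not be searched. CACGTG reads the same on both strands. It was present for 10 of the 33 members (30.3%), against 8.09% of the 27025 symbols with an entry and 11.9% of the 9935 symbols in tested rows. The 10 were Atp6v0b, Atp6v0d1, Atp6v0e, Atp6v1a, Gaa, Gla, Glb1, Naglu, Lamp1 and Mcoln1. They held 16 sites in all. Each of these sites read TCACGTG on at least one strand, a longer match, overlapping the first, that 7.12% of the symbols in tested rows have. GTCACGTG, searched on both strands, was present for 7 of the 33 members (21.2%) and 4.84% of the symbols in tested rows. A letter match is a description and no proof of a site in use. The windows of 30 bases below, in capitals the CACGTG core and read along the gene's strand, show for the 10 members the site nearest to the start site and let the flanking letters be compared.
Atp6v0b (chr4:117887330-117887359, minus strand): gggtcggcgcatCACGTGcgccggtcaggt
Atp6v0d1 (chr8:105566050-105566079, minus strand): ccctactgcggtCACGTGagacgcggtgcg
Atp6v0e (chr17:26676387-26676416, plus strand): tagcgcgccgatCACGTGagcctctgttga
Atp6v1a (chr16:44139373-44139402, minus strand): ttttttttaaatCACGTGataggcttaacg
Gaa (chr11:119267811-119267840, plus strand): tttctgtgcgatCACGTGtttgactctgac
Gla (chrX:134601182-134601211, minus strand): tgagatctcggtCACGTGagcaactctcgg
Glb1 (chr9:114401018-114401047, plus strand): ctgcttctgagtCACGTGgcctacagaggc
Lamp1 (chr8:13159134-13159163, plus strand): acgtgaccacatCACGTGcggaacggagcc
Mcoln1 (chr8:3500462-3500491, plus strand): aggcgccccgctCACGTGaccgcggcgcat
Naglu (chr11:101070009-101070038, plus strand): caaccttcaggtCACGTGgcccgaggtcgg

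Lamp1 held 4 such sites, with first bases 61, 45, 28 and 15 bases before its start site. Its other 3 windows are shown because they crowd the same short stretch.
Lamp1, farthest site (chr8:13159088-13159117, plus strand): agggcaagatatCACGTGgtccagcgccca
Lamp1, next site (chr8:13159104-13159133, plus strand): tggtccagcgccCACGTGatgccgactggc
Lamp1, next site (chr8:13159121-13159150, plus strand): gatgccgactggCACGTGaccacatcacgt
The log2 fold change, MEK1-hi over MEK1-low, had a median of -0.01 over the 10 members with CACGTG and 0.06 over the 23 members without it. Of the 10, 0 were called different between the groups by Cuffdiff (q under 0.05), beside 1.32% of all tested rows, and 0 had an unadjusted p under 0.05, beside 6.08%. Atp6v0d2, the only one of the 39 members called, had no promoter entry. A count of 0 called was therefore fixed for members with and without the core alike. With 10 genes, these shares leave nothing to read from the counts.

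Values below are FPKM, read fragments scaled to transcript length and sequencing depth, with 1 pooled estimate per group made by the authors and hence no SD. A gene was called different where the q value, the adjusted p of the authors' Cuffdiff test, was under 0.05. That rule called 163 of the 12311 tested rows (1.32%), 123 (0.999%) higher and 40 (0.325%) lower in MEK1-hi. The smallest difference called in any row was 0.82 on the log2 scale, and 38 of the 39 members differed by less than that. A q above the threshold therefore does not show that a member was equal in both groups. The p values rest on the variation between libraries as Cuffdiff models it. Because libraries may share an animal, that variation may be technical. The 12 macrophage markers were all present, from 23.1 FPKM in MEK1-hi and 25.2 FPKM in MEK1-low (Mertk) upward. In log2 fold change 6 lay above 0 and 6 below, from -0.73 (Mrc1) to 0.54 (Aif1), with a median of -0.0005 and none called. They summed to 14449 FPKM in MEK1-hi and 13119 FPKM in MEK1-low, a ratio of 1.10, beside 1.10 over all tested rows. Most of both sums was C1qa, C1qb and C1qc, which all lay above 0. The 12 fibroblast and fibrosarcoma markers were all below 0 in log2 fold change, 3 of them called lower (Acta2, Thy1 and Col6a3), and summed to 1142 FPKM in MEK1-hi and 1762 FPKM in MEK1-low. Of 5 dendritic cell markers, 4 lay above 0 in log2 fold change, with Xcr1 and Clec9a called higher, and 1 lay below. That 1 was Cd209a, with 4.64 FPKM in MEK1-hi and 9.68 FPKM in MEK1-low, not called. The 5 summed to 21.4 FPKM in MEK1-hi and 16.0 FPKM in MEK1-low, so the sum mixes both directions. T cell markers summed to 9.69 FPKM in MEK1-hi and 4.79 FPKM in MEK1-low, and none was called. Those of neutrophils summed to 63.0 FPKM in MEK1-hi and 55.7 FPKM in MEK1-low, also with none called. Of the 4 neutrophil markers tested, 2 lay above 0 in log2 fold change and 2 below, so that sum mixes both directions too. Markers of B cells and NK cells summed to less than 1 FPKM per group. In such bulk RNA, fewer cells of a type and less RNA per cell cannot be told apart.

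The lysosome set was abundant and, with 1 exception, uncalled. Of the 39 members, 37 had a level above the median of tested rows and 27 were above the 90th percentile. Atp6v0d2, the d2 isoform of a V0 subunit, fell. No member was called higher and 1 (2.56%) was called lower, beside 0.999% and 0.325% of tested rows. With an unadjusted p under 0.05 there were 0 higher and 3 lower members, Atp6v0d2, Acp5 and Arsb, beside 3.50% and 2.58% (6.08% in all) of tested rows. FPKM over the set summed to 8710.2 in MEK1-hi and 7734 in MEK1-low, a ratio of 1.13, beside 1.10 over all tested rows. Most of that difference was Psap, which was not called, with 3279 FPKM in MEK1-hi and 2382 FPKM in MEK1-low. The median log2 fold change of the members was 0.00, beside -0.02 over all tested rows. Of the members, 29 (74.4%) lay within 0.25 of 0 on the log2 scale, as did 64.9% of all tested rows and 74.4% of the tested rows with a mean of at least 10 FPKM.

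**Figure D1:**
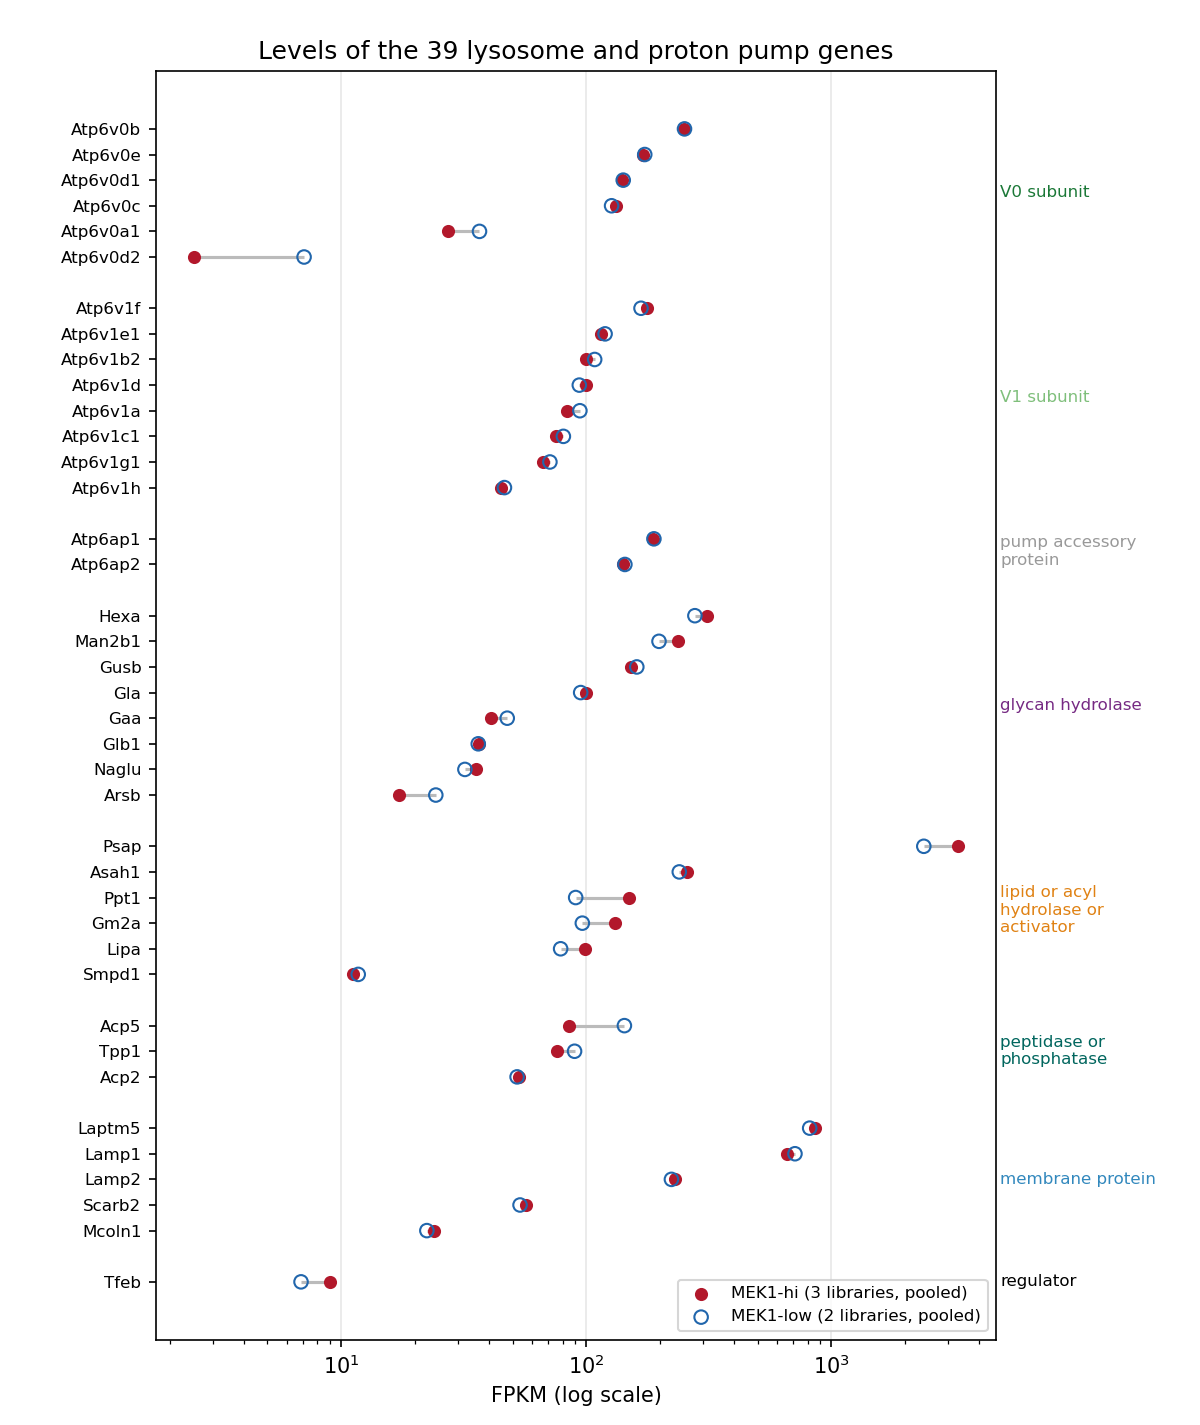
FPKM of each of the 39 members (log axis) in MEK1-hi (filled red) and MEK1-low (open blue), 1 pooled estimate per group, ordered by role. Most pairs of points overlap; Atp6v0d2 (2.51 FPKM in MEK1-hi and 7.05 FPKM in MEK1-low) is the widest pair, and Psap stands highest.

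Among the 6 V0 subunits, 4 common ones differed by at most 0.06 on the log2 scale and the rare d2 isoform differed most. Atp6v0d2 had 2.51 FPKM in MEK1-hi and 7.05 FPKM in MEK1-low. It was the only member called, with a log2 fold change of -1.49 (statistic -2.72, p = 0.0002, q = 0.0202 in the authors' deposited table). Its mm10 locus is chromosome 4, 19876838 to 19922566, where GENCODE M21 places the gene on the minus strand. The d2 subunit joins the proton-carrying ring to the rotating stalk, and in mice it is best known from osteoclasts and fusing macrophages. Its level lay at the 32.5th percentile of tested rows, so the call rests on a low level, and with a pseudocount of 1 the log2 fold change was -1.20. Under the Benjamini-Yekutieli adjustment 0 of 12311 rows passed, not even the 91 rows that share the smallest p, 5e-05. That adjustment therefore cannot tell this call from any other.

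Atp6v0d1, the widely used isoform of the same subunit, had 140.2 FPKM in MEK1-hi and 141 FPKM in MEK1-low (q = 0.9998 in the authors' deposited table). As a share of both isoforms' FPKM, Atp6v0d2 was 1.76% in MEK1-hi and 4.75% in MEK1-low. The d isoforms together gave 143 FPKM in MEK1-hi and 148 FPKM in MEK1-low, so the called isoform was a small fraction of the subunit's transcripts in both groups. Their difference in response was not tested.

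Atp6v0a1 encodes an isoform of subunit a, through which protons pass. It had 27.3 FPKM in MEK1-hi and 36.7 FPKM in MEK1-low and was not called (chromosome 11, 101009441 to 101063717, log2 fold change -0.42, statistic -1.02, p = 0.0879, q = 0.987 in the authors' deposited table). Outside the 39, Tcirg1 encodes the a3 isoform, which osteoclasts rely on, and Atp6v0a2 the a2 isoform. Tcirg1 had 212 FPKM in MEK1-hi and 189.6 FPKM in MEK1-low, and Atp6v0a2 had 16.7 FPKM in MEK1-hi and 14.1 FPKM in MEK1-low, neither called. Of these 3 isoforms' FPKM, Atp6v0a1 made up 10.7% in MEK1-hi and 15.2% in MEK1-low, and Tcirg1 82.8% in MEK1-hi and 78.9% in MEK1-low. The a3 isoform thus supplied most of the measured subunit a transcripts in both groups.

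Atp6v0b, which encodes a subunit of the ring, was the most abundant pump transcript. Its values were 251 FPKM in MEK1-hi and 252 FPKM in MEK1-low (chromosome 4, 117884330 to 117887329, log2 fold change 0.00, statistic -0.0034, p = 0.995, q = 0.9998 in the authors' deposited table). Atp6v0c, the main ring subunit, had 132 FPKM in MEK1-hi and 127 FPKM in MEK1-low. GENCODE M21 names 2 pseudogenes of Atp6v0c, to which its reads could partly be assigned, so its value is uncertain. Only pseudogenes named after pump subunits were looked for, so other members may have some too. Atp6v0e, a small V0 subunit, had 171 FPKM in MEK1-hi and 173 FPKM in MEK1-low. Neither of the last pair was called.

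The 8 V1 subunits spanned a narrow range of differences, from -0.18 to 0.09 on the log2 scale, with a median of -0.07. None was called, and 0 had an unadjusted p under 0.05. For the catalytic head, Atp6v1a had 83.1 FPKM in MEK1-hi and 94.1 FPKM in MEK1-low, and its partner Atp6v1b2 had 100.1 FPKM in MEK1-hi and 108 FPKM in MEK1-low. Both lay slightly below 0 in log2 fold change. For the central stalk that turns inside the head, Atp6v1d had 99.4 FPKM in MEK1-hi and 93.6 FPKM in MEK1-low, and Atp6v1f had 177 FPKM in MEK1-hi and 167 FPKM in MEK1-low. These were the V1 members above 0. For the outer stalks that hold the head still, Atp6v1e1 had 115 FPKM in MEK1-hi and 119 FPKM in MEK1-low, and Atp6v1g1 had 66.7 FPKM in MEK1-hi and 71.0 FPKM in MEK1-low. Atp6v1c1, which helps to couple the sectors, had 75.2 FPKM in MEK1-hi and 80.6 FPKM in MEK1-low, and the regulatory subunit gene Atp6v1h had 44.7 FPKM in MEK1-hi and 46.3 FPKM in MEK1-low. Atp6v1f was thus the most and Atp6v1h the least abundant V1 transcript in both groups. Atp6v1b2 overlaps Slc18a1 on the opposite strand by 590 bases but shares no exon base with it, and Slc18a1 was at 0.133 FPKM in MEK1-hi and 0.225 FPKM in MEK1-low.

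The accessory proteins, which help to assemble and target the pump, were close to equal in FPKM. Atp6ap1 had 187 FPKM in MEK1-hi and 189 FPKM in MEK1-low, and Atp6ap2 had 141 FPKM in MEK1-hi and 144 FPKM in MEK1-low, neither called (both q = 0.9998 in the authors' deposited table).

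Among the 8 hydrolases of glycans, 5 lay above 0 and 3 below, with a median log2 fold change of 0.05, and none was called. Hexa, a subunit of the enzyme that cleaves GM2 ganglioside, was the most abundant at 309.9 FPKM in MEK1-hi and 277 FPKM in MEK1-low (chromosome 9, 59539540 to 59565109, log2 fold change 0.16, statistic 0.393, p = 0.54, q = 0.9998 in the authors' deposited table). Man2b1, which trims mannose from N-glycans, had 236 FPKM in MEK1-hi and 198 FPKM in MEK1-low. Gusb, which removes glucuronic acid from glycosaminoglycans, had 152 FPKM in MEK1-hi and 161 FPKM in MEK1-low. These 3 differed in sign, and none had an unadjusted p under 0.05. Gla, which removes galactose from glycolipids, had 100.1 FPKM in MEK1-hi and 94.8 FPKM in MEK1-low. Gaa, which breaks down glycogen, had 40.9 FPKM in MEK1-hi and 47.6 FPKM in MEK1-low. Naglu, of heparan sulfate breakdown, had 35.4 FPKM in MEK1-hi and 32.0 FPKM in MEK1-low, close in level to the row of Glb1, the beta-galactosidase gene.

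Glb1 had 36.6 FPKM in MEK1-hi and 36.2 FPKM in MEK1-low, a value that covers Tmppe too, since the authors' table joins them. Arsb, the sulfatase of dermatan sulfate, had the lowest level among glycan hydrolases. It stood at 17.3 FPKM in MEK1-hi and 24.3 FPKM in MEK1-low, with an unadjusted p under 0.05 but no call (chromosome 13, 93771679 to 93943016, log2 fold change -0.49, statistic -1.33, p = 0.0375, q = 0.712 in the authors' deposited table).

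Genes for lipid and acyl group breakdown had the highest median of any role with more than 1 gene. Of 6 members, 5 lay above 0 and 1 below under every scaling tried, with a median log2 fold change of 0.39, beside -0.02 over all tested rows, but none was called and 0 had an unadjusted p under 0.05. Psap, the precursor of the saposins that help enzymes reach sphingolipids, was the most abundant of all 39 members. Its values were 3279 FPKM in MEK1-hi and 2382 FPKM in MEK1-low, a 1.38-fold difference that was not called (chromosome 10, 60277628 to 60302600, log2 fold change 0.46, statistic 0.646, p = 0.325, q = 0.9998 in the authors' deposited table). Psap alone was 64.7% of the FPKM of the 17 hydrolases and activators in MEK1-hi and 58.8% in MEK1-low. Without it, the other 16 summed to 1789.9 FPKM in MEK1-hi and 1672 FPKM in MEK1-low, a ratio of 1.07, against 1.25 with it.

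Ppt1, which removes fatty acids from proteins, had the largest log2 fold change above 0 of the 39, 0.72. It stood at 148.9 FPKM in MEK1-hi and 90.5 FPKM in MEK1-low and was not called (statistic 0.989, p = 0.129, q = 0.9998 in the authors' deposited table). Its locus in the table, chromosome 4, 122836227 to 122886076, runs on through the neighbouring gene Cap1. By GENCODE M21, Ppt1 and Cap1 overlap by 129 exon bases on opposite strands, and Cap1 had 198 FPKM in MEK1-hi and 181 FPKM in MEK1-low. The strand setting of the authors' counting is not given in the sources used here, so reads of that stretch may belong to either gene.

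Gm2a, the activator that presents GM2 ganglioside to its enzyme, had 131 FPKM in MEK1-hi and 96.3 FPKM in MEK1-low (chromosome 11, 55097985 to 55113028, log2 fold change 0.44, statistic 1.11, p = 0.0811, q = 0.96 in the authors' deposited table). Lipa, the acid lipase that frees cholesterol from its esters, had 98.6 FPKM in MEK1-hi and 78.5 FPKM in MEK1-low, a 1.26-fold difference that was not called. Asah1, the acid ceramidase, had 257 FPKM in MEK1-hi and 239 FPKM in MEK1-low (chromosome 8, 41340646 to 41374697, log2 fold change 0.10, statistic 0.254, p = 0.692, q = 0.9998 in the authors' deposited table). Smpd1, the acid sphingomyelinase, was the member of this role below 0, at 11.2 FPKM in MEK1-hi and 11.7 FPKM in MEK1-low.

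Acp5, the tartrate-resistant acid phosphatase that serves as a stain for osteoclasts, came nearest to the threshold among the uncalled members. It had 85.1 FPKM in MEK1-hi and 143 FPKM in MEK1-low (chromosome 9, 22126727 to 22135746, log2 fold change -0.75, statistic -2.02, p = 0.00155, q = 0.0969 in the authors' deposited table). At a q of 0.10, 2 members were called, Atp6v0d2 and Acp5, beside 1.61% of all tested rows (1.17% higher and 0.439% lower). Acp2, the general lysosomal acid phosphatase, had 53.3 FPKM in MEK1-hi and 52.2 FPKM in MEK1-low. Acp2 overlaps Ddb2 on the opposite strand by 652 exon bases, and Ddb2 was at 3.82 FPKM in MEK1-hi and 3.68 FPKM in MEK1-low. Tpp1, a peptidase that removes tripeptides, had 76.0 FPKM in MEK1-hi and 89.5 FPKM in MEK1-low, and neither Acp2 nor Tpp1 was called.

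Lysosomal membrane proteins differed little, from -0.11 to 0.10 on the log2 scale, and none of the 5 was called. Laptm5, a membrane protein of blood cell lysosomes, had 854 FPKM in MEK1-hi and 815 FPKM in MEK1-low (chromosome 4, 130913316 to 130936148, log2 fold change 0.07, statistic 0.131, p = 0.838, q = 0.9998 in the authors' deposited table). Lamp1, a main coat glycoprotein of the lysosome's inner face, had 656 FPKM in MEK1-hi and 710.0 FPKM in MEK1-low (chromosome 8, 13159161 to 13175338, log2 fold change -0.11, statistic -0.239, p = 0.709, q = 0.9998 in the authors' deposited table). After Psap, these were the most abundant members. Lamp2, its relative in chaperone-mediated autophagy, had 229 FPKM in MEK1-hi and 222 FPKM in MEK1-low. Scarb2, which carries the glucocerebrosidase to the lysosome, had 56.7 FPKM in MEK1-hi and 53.6 FPKM in MEK1-low. Mcoln1, a calcium channel, had 23.9 FPKM in MEK1-hi and 22.4 FPKM in MEK1-low. Tfeb itself was low, with 8.97 FPKM in MEK1-hi and 6.85 FPKM in MEK1-low (log2 fold change 0.39, q = 0.9998 in the authors' deposited table), and its transcript does not measure its activity, which is set by its entry into the nucleus.

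**Figure D2:**
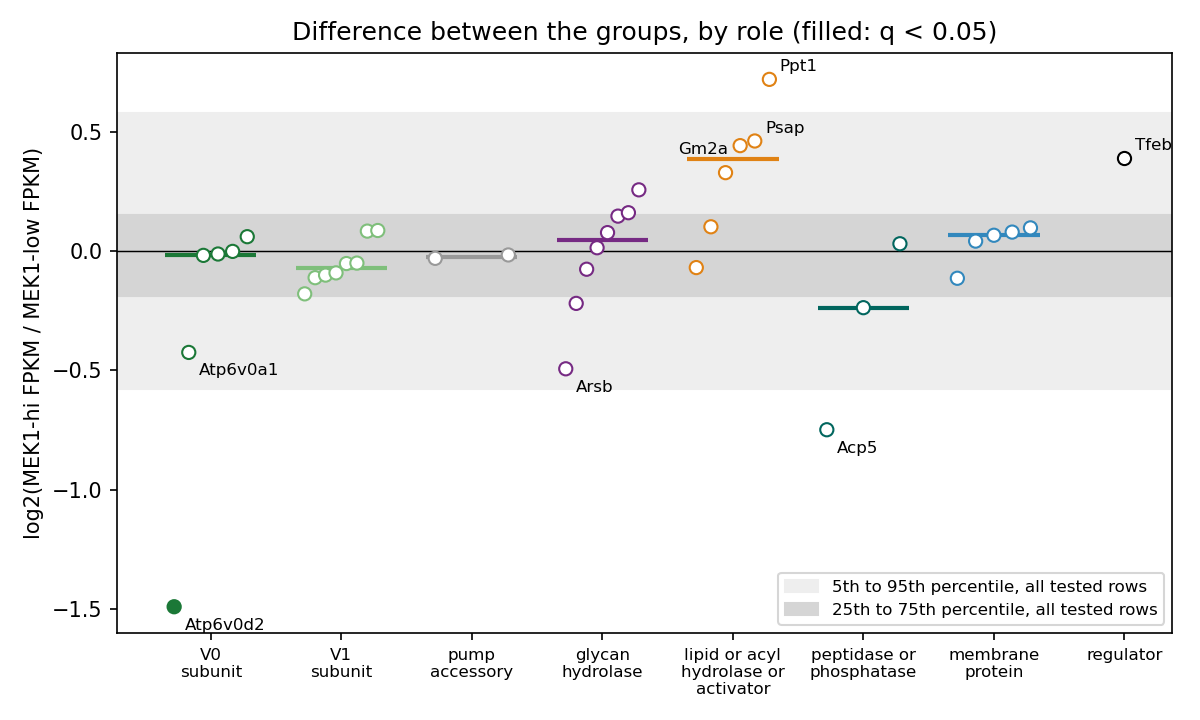
Log2 fold change, MEK1-hi over MEK1-low, of each member by role (points, filled where called at a q under 0.05; coloured bars are role medians; a role with 1 gene has none). The grey bands are those of the legend; the V1 subunits and membrane proteins lie within the inner one, and Atp6v0d2 at -1.49, Acp5 at -0.75 and Ppt1 at 0.72 lie outside the outer band.

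Set against each other, the 14 pump subunits had a median log2 fold change of -0.05 and the 22 hydrolases, activators and membrane proteins one of 0.07, a difference of -0.12. Of the pump subunits 3 lay above 0 and 11 below, and of the other 22 genes 15 lay above and 7 below. Pump subunits summed to 1486 FPKM in MEK1-hi and 1517 FPKM in MEK1-low, and the 22 genes to 6888 FPKM in MEK1-hi and 5878 FPKM in MEK1-low. The ratios were 0.98 and 1.17, beside 1.10 over all tested rows, and most of the difference over the 22 genes was Psap. The pump median stayed below 0 under each scaling tried, while that of the 22 genes changed sign. With both groups set to equal FPKM sums, which shifts every log2 fold change by 0.10, the medians were -0.15 and -0.03, with all 14 pump subunits below 0 and the 22 genes split 8 above and 14 below. With the median of tested rows set to 0, they were -0.03 and 0.10, with 6 pump subunits above 0 and 8 below. These scalings shift all genes alike and so cannot move the difference of the medians. No test of it was made, because genes are not replicates.

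**Figure D3:**
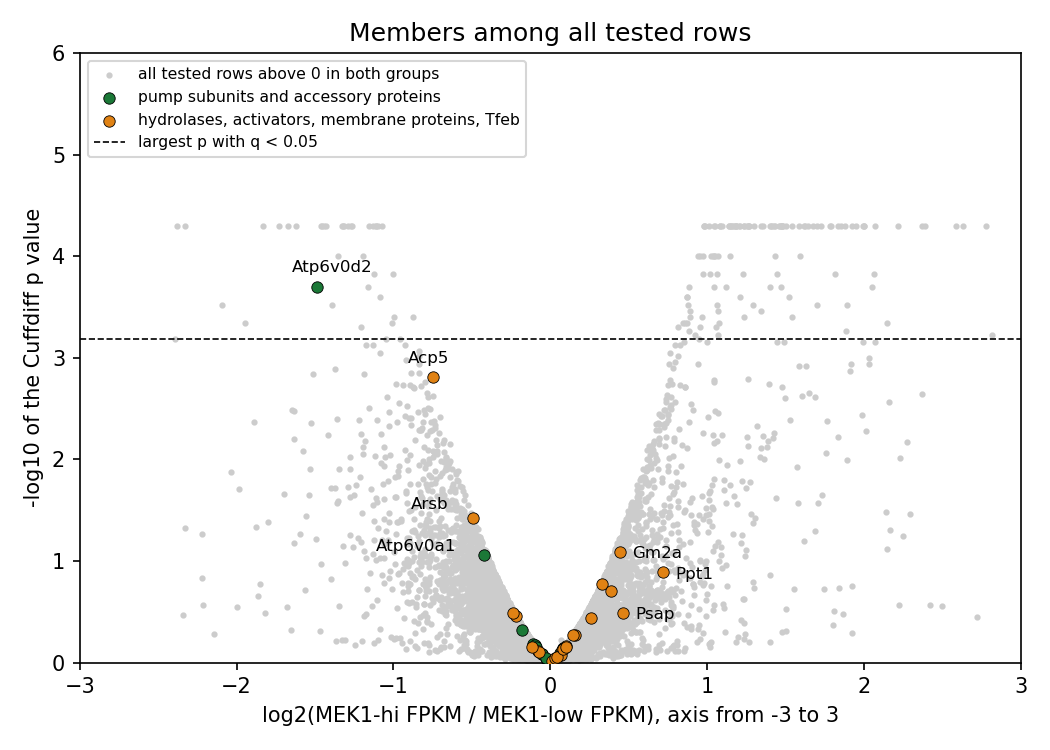
Each tested row above 0 in both groups (grey) by its log2 fold change, MEK1-hi over MEK1-low (horizontal), and the -log10 of the authors' Cuffdiff p (vertical); pump genes are green, other members orange, and 7 rows beyond the axis of -3 to 3 are not drawn. Atp6v0d2 is the member above the dashed line of the largest called p; Acp5 lies just under it, and Ppt1 and Psap have low -log10 p for their fold changes.

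Across most members p became smaller as the difference grew, with Ppt1 and Psap, picked after their values were seen, as the clearest exceptions. Ppt1 and Acp5 had log2 fold changes of like size, 0.72 and -0.75, with p = 0.129 and p = 0.00155 in the authors' deposited table. Psap, at the 99.9th percentile of level, had a larger log2 fold change than Gm2a and a larger p. The variance that Cuffdiff used for each gene is not among the deposited values, and why these p values differ was not tested.

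Further lysosome genes were read from lists. Of 77 further genes in 4 lists, 72 were tested, 0 were called higher and 0 lower by Cuffdiff, and 1 higher and 2 lower had an unadjusted p under 0.05. Of all tested rows, 1.32% were called, and 3.50% higher and 2.58% lower had an unadjusted p under 0.05, so these counts do not set the lists apart. Other pump subunits and assembly factors had 10 of 14 tested, with a median log2 fold change of -0.10. The genes with the smallest p among them were Atp6v0a2 and Dmxl1, a partner in pump assembly, which had 9.71 FPKM in MEK1-hi and 11.1 FPKM in MEK1-low. The tissue-restricted isoforms Atp6v1b1 and Atp6v1e2 were listed at 0 in both groups. Other hydrolases and activators, all 24 tested, had a median of 0.02. Fuca1, the fucosidase, had 48.4 FPKM in MEK1-hi and 39.4 FPKM in MEK1-low and was not called.

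Other membrane and sorting proteins, all 21 tested, had a median of 0.00 with 10 above 0 and 11 below. Slc11a1, a metal transporter of the phagosome known for resistance to intracellular microbes, had 264 FPKM in MEK1-hi and 155 FPKM in MEK1-low (log2 fold change 0.77, p = 0.0029, q = 0.153 in the authors' deposited table). Igf2r, a receptor that delivers hydrolases to lysosomes, had 16.2 FPKM in MEK1-hi and 24.4 FPKM in MEK1-low (p = 0.0161, q = 0.444 in the authors' deposited table). Neither was called. Of 18 regulators, 17 were tested, with a median of -0.07. Tfec, a relative of Tfeb found in macrophages, had 5.51 FPKM in MEK1-hi and 8.79 FPKM in MEK1-low (p = 0.0447, q = 0.779 in the authors' deposited table), and Rragd, a GTPase of nutrient sensing at the lysosome, had 0.586 FPKM in MEK1-hi and 0.856 FPKM in MEK1-low.

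Atp6v0d2 and Acp5 are both known from osteoclasts, and so a list of 15 osteoclast genes was read beside them. Of its 14 tested genes, 0 were called higher and 2 lower, beside 0.325% of tested rows called lower. With an unadjusted p under 0.05 there were 0 higher and 6 lower, beside 2.58% of tested rows lower, and the median log2 fold change was -0.41. Ctsk, the collagen-degrading cathepsin of osteoclasts, fell to 30.5 FPKM in MEK1-hi, against 73.5 FPKM in MEK1-low (log2 fold change -1.27, q = 0.00676 in the authors' deposited table). Itgb3, the integrin chain with which osteoclasts grip bone, fell to 2.18 FPKM in MEK1-hi, against 4.75 FPKM in MEK1-low (log2 fold change -1.12, q = 0.0163 in the authors' deposited table). Of the 14 tested genes, 5 lay above 0 in log2 fold change and 9 below.

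Among genes of the list picked after their values were seen, Src, a kinase of the osteoclast's ruffled border, had 10.9 FPKM in MEK1-hi and 19.5 FPKM in MEK1-low (q = 0.0598 in the authors' deposited table). Dcstamp, a protein needed for cell fusion, had 5.08 FPKM in MEK1-hi and 10.4 FPKM in MEK1-low (q = 0.169 in the authors' deposited table), whereas Ocstamp, its partner in fusion, had 6.03 FPKM in MEK1-hi and 5.42 FPKM in MEK1-low (q = 0.9998 in the authors' deposited table). Nfatc1, the master transcription factor of osteoclasts, had 28.5 FPKM in MEK1-hi and 29.6 FPKM in MEK1-low, and Tcirg1, Clcn7 and Ostm1, which serve acid secretion, all lay above 0 in log2 fold change. None of these was called. Calcr, the calcitonin receptor that defines mature osteoclasts, was near 0, with 0.0090 FPKM in MEK1-hi and 0.0470 FPKM in MEK1-low, too low for the authors' test. The fibroblast and fibrosarcoma marker sum was lower in MEK1-hi along with these genes, as given above, and Ctsk is also made by fibroblasts. The part of such cells in the values of Atp6v0d2, Acp5 and Ctsk was not tested.

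**Figure D4:**
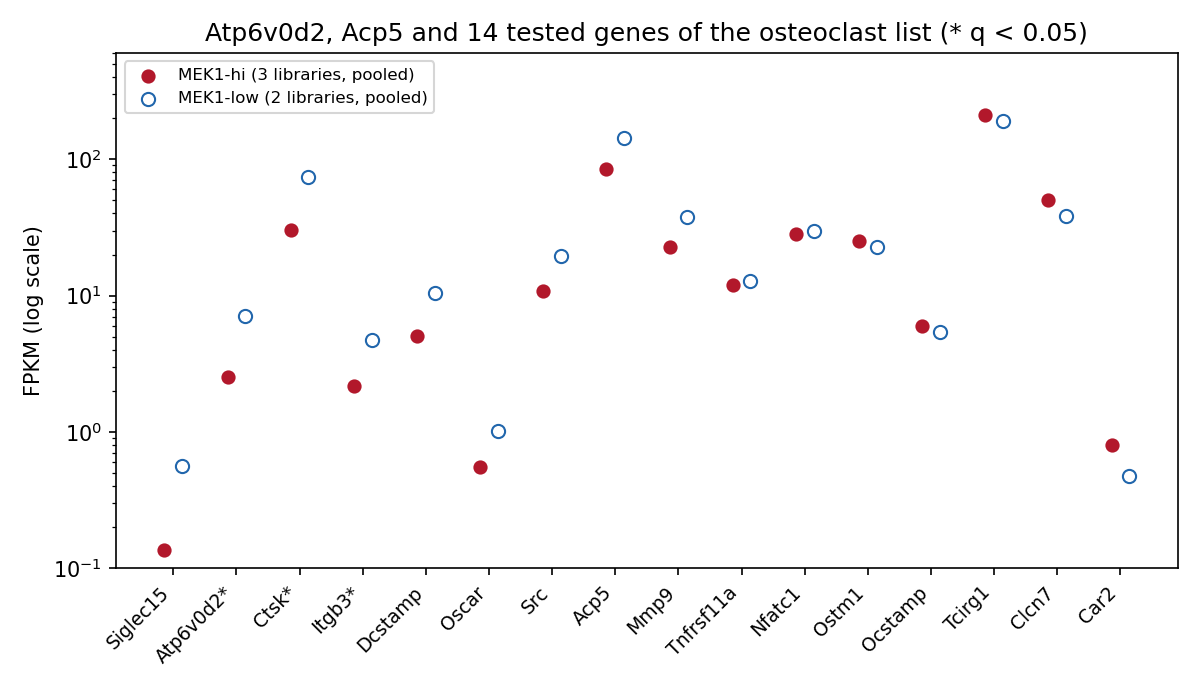
FPKM (log axis) of Atp6v0d2, Acp5 and the 14 tested genes of the osteoclast list in MEK1-hi (filled red, left of each pair) and MEK1-low (open blue), sorted by log2 fold change; a star marks a q under 0.05. The 3 starred genes, Atp6v0d2, Ctsk and Itgb3, were lower in MEK1-hi, while Tcirg1 and Clcn7 stand higher in MEK1-hi without a call.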

How the data were processed

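Per the labels' protocols, RNA taken up in TRIzol, with an integrity number above 8.0, went into stranded poly(A) libraries (750 ng each) that were sequenced as paired reads of 100 bases, with 25000000 reads planned for each. The submitters' processing notes name FastQC 0.73, TopHat, Cufflinks and Cuffdiff beside mm10, without saying what each did. Neither the annotation nor the strand setting is given in the sources used here. What the authors deposited is 1 Cuffdiff table, with an FPKM for each group that pools its libraries. Its statistic is the authors' own score, and its p-value and q-value columns are given as deposited. The q equals a Benjamini-Hochberg adjustment over the 12311 tested rows to within 5e-07. Loci are written 1-based. The smallest p is 5e-05.

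Log2 fold changes were computed from the FPKM without a pseudocount. No count model or set test was run, and with no values per library neither SD, depth, interval nor detection floor can be given. Members and lists were chosen with earlier results of these data known. All 39 members are named; full statistics are given for those called, the 6 with the smallest p and the 6 with the highest mean, and per further list up to 3 called genes or the 2 with the smallest p. One gene that this rule names is not reported here. Values were computed in Python 3.11.15 with pandas 2.3.3, numpy 2.4.6 and scipy 1.17.1, and drawn with matplotlib 3.10.9. The adjustment code was tested on simulated data.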

Additional observations from a re-analysis of the deposited data

How the results depend on the processing

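The number of members called lower or higher was 1 with the authors' q of 0.05. It was 2 at a q of 0.10, 3 at an unadjusted p under 0.05 and 0 under the Benjamini-Yekutieli adjustment. For the other lysosome genes, 0 were called at the authors' q and 3 had an unadjusted p under 0.05. For the osteoclast list the 2 calls became 6 at an unadjusted p under 0.05 and 0 under Benjamini-Yekutieli. Leaving out rows that join several symbols, or rows under 1 FPKM in both groups, gave the same counts as the q of 0.05. The Benjamini-Yekutieli counts could only be 0, because even the 91 rows at the smallest p, 5e-05, did not pass. The medians of the pump subunits and of the hydrolases and membrane proteins moved by less than 0.1 on the log2 scale under a pseudocount of 1. The same held for the changes of membership, some of which were chosen after seeing the data, and for the difference of these medians. Both scalings shift every gene by 1 constant, so how far they moved each median was fixed in advance, and they cannot move the difference. With equal FPKM sums that shift was 0.0988, and the median of the hydrolases and membrane proteins went from 0.07 to -0.03. Among the 39 members, 10 changed sign with equal FPKM sums and 4 with the median of tested rows at 0, none of them called. Leaving out each library was not run. No paired analysis was possible because the deposited values are pooled by group. Low FPKM limits Atp6v0d2 most, at 2.51 FPKM in MEK1-hi and 7.05 FPKM in MEK1-low.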
